A study of Mus musculus with 12 samples.

Results

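Amino acid transporters carry amino acids and related small molecules across the plasma membrane and the membranes of organelles. The genes described here are the protein-coding mouse genes of 6 solute carrier families, Slc1, Slc6, Slc7, Slc36, Slc38 and Slc43, chosen by symbol alone, with Slc7a2 and Slc7a11 left out. The rule gave 57 genes of the 55414 gene IDs in the count table, and all 57 had an ID in it. It goes by symbol and not by cargo, so a few members carry something else: Slc43a3 is a purine nucleobase carrier, Slc6a8 carries creatine, and Slc6a2, Slc6a3 and Slc6a4 carry monoamines. Slc6a20a and Slc6a20b, whose symbols end in a letter, did not meet the rule. Their RNA was measured in macrophages isolated from the calf muscle of C57BL6J wild type male mice, 8 to 12 weeks old, after hindlimb ischemia, in which the femoral artery was ligated and excised. There were 12 RNA-seq libraries, with 3 for each of 4 times, which are written as days post injury (dpi) and were 1, 2, 4 and 7 dpi. Every library came from an ischemic limb, and no uninjured group is among them. The cells carried CD45, CD11b, F4/80 and CD64, surface proteins that together mark mouse macrophages. Neither the labels nor the methods tell if each library is a single animal or a pool. The p-values therefore reflect how far these libraries spread, and that spread may be technical. In bulk samples of this kind, fewer cells of a type and less RNA per cell cannot be told apart.

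The Slc1 family holds sodium-coupled carriers of glutamate and exchangers of small neutral amino acids such as glutamine. Most Slc7 proteins are light chains that reach the plasma membrane only when bound to a heavy chain, CD98hc in most cases, the product of Slc3a2. They exchange an amino acid inside the cell for another outside, so net uptake depends on carriers such as those of the Slc38 family, which move small neutral amino acids together with sodium. A second branch of Slc7, the cationic amino acid transporters, works without a heavy chain and brings in arginine and lysine. Members of Slc36 and Slc38 also sit on the lysosome, where macrophages break down ingested protein, and there they release amino acids to the cytosol or signal their presence to the mTORC1 kinase. In macrophages arginine is the substrate of both nitric oxide synthase and arginase, and glutamine feeds several biosynthetic routes.

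Of the 57 genes, 28 passed the filter on low counts and were tested. Another 14 had no count in any library: Slc1a7, Slc38a5, Slc6a3, Slc6a5, Slc6a7, Slc6a14, Slc6a15, Slc6a16, Slc6a18, Slc6a21, Slc7a9, Slc7a10, Slc7a12 and Slc7a14. The remaining 15 had counts but too few to test, with at most 24 counts in a library and at most 66 over all 12. They included Slc38a4 with 66 counts in all, Slc1a1 with 64, Slc6a9 with 41, Slc6a12 with 31, Slc38a11 with 28, Slc6a17 with 26, Slc6a2 with 16, Slc38a3 with 15, Slc6a4 with 10, Slc6a13 with 5, and Slc1a6, Slc38a8, Slc6a11 and Slc7a3 with 2 each. Most of these untested genes are best known from nerve, kidney, gut or liver. Genes with few counts were not detectable at this depth, which is not the same as being absent.

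The libraries held 19528316 to 33599472 counts, of which 1 gene with no symbol in the annotation took 14.8 to 55.7%. Scaling factors (TMM) ran from 0.652 to 1.70. Both differed by day. The share of the unnamed gene was 52.9 to 55.7% at 1 dpi and 14.8 to 30.1% at 7 dpi. The factors were 0.652 to 0.725 at 1 dpi and 1.35 to 1.70 at 7 dpi. What part this had in the CPM levels below was not tested. The 8 macrophage markers were present in every library. In CPM, counts scaled to the size of the library, they summed to 5654 to 6763 at 1 dpi and 10095 to 14804 at 7 dpi. Lyz2 alone had means of 3708 CPM at 1 dpi and 8853 CPM at 7 dpi. Between these days 4 of the 8 were called higher and 2 lower. Means fell from 180 to 35.8 CPM for Itgam (CD11b) and from 433 to 140 CPM for Fcgr1 (CD64). The 5 monocyte markers fell from a sum of 1838 to 2480 CPM at 1 dpi to 156 to 271 CPM at 7 dpi, and 5 of 5 were called lower between these days. The 6 fibroblast markers summed to 14.4 to 50.6 CPM at 1 dpi and 27.4 to 43.2 at 2 dpi, then 131 to 255 at 4 dpi and 408 to 830 at 7 dpi, with none at 0 at any day. The 9 muscle fibre markers summed to 7.01 to 17.4 CPM at 1 dpi and 48.9 to 128 CPM at 7 dpi, with 1 of 9 at 0 in all libraries. The 10 neutrophil markers summed to 131 to 204 CPM at 1 dpi and 43.4 to 52.7 CPM at 7 dpi, where 5 of 10 were at 0. Of the 5 tested, 4 were called lower between these days. Csf3r had means of 50.0 CPM at 1 dpi and 47.1 CPM at 7 dpi, while S100a8 went from 22.0 to 0 CPM. These sums moved with the day, as the transporters below did, and their part in each result was not tested.

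To compare levels between genes, CPM was divided by the exonic length of the gene in kilobases. A few transporters made up nearly all of the transporter RNA. Slc7a8, the light chain LAT2, stood first with a mean of 73.9 CPM per kilobase over the 12 libraries, and Slc6a6, the taurine transporter, second with 64.4. Slc7a7 (y+LAT1) followed with 24.2, Slc38a2 (SNAT2) with 22.7, Slc38a7 (SNAT7) with 17.3, Slc43a2 (LAT4) with 15.0, Slc1a5 (ASCT2) with 13.6 and Slc38a10 (SNAT10) with 10.8. Slc7a1 (CAT1) and Slc7a6 (y+LAT2) closed the 10 highest with 5.04 and 4.69 CPM per kilobase. The 5 highest genes gave 74% of the summed level and the 10 highest 91.9%. At the other end, 9 of the 28 tested genes had a mean under 1 CPM: Slc7a15, Slc36a2, Slc36a3, Slc7a13, Slc1a4, Slc6a19, Slc43a1, Slc1a2 and Slc1a3.

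**Figure D1:**
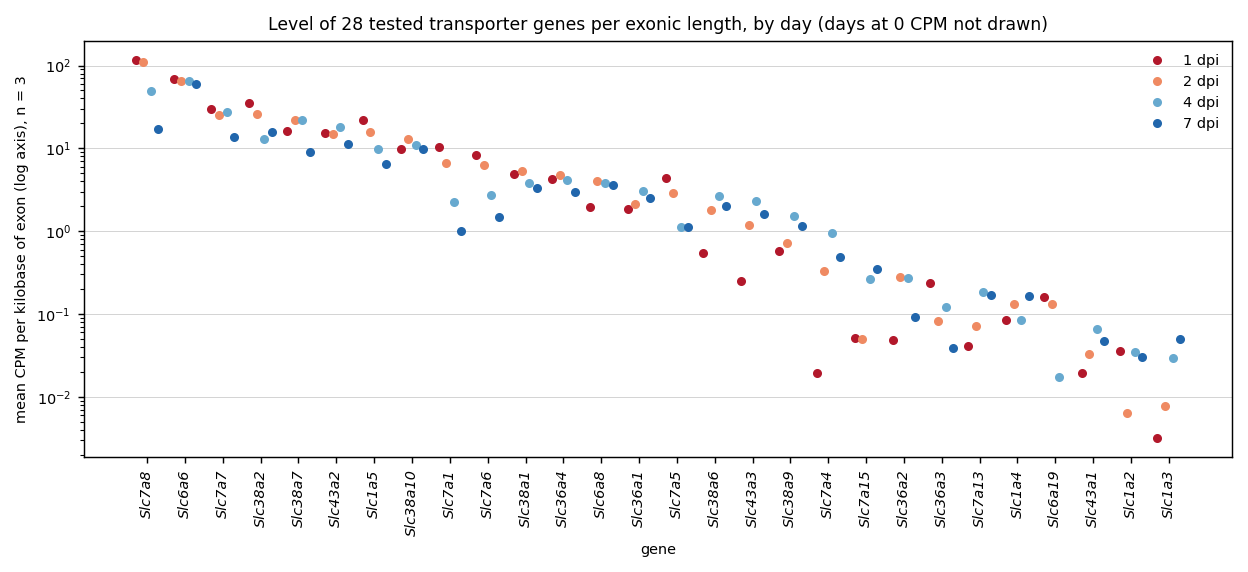
Mean level of the 28 tested transporter genes, in CPM per kilobase of exon on a log axis, with 1 point per day (mean of 3 libraries; days with a mean of 0 are not drawn) and genes ordered by their mean over all libraries. Slc7a8 and Slc6a6 lead at 1 and 2 dpi, and at 4 and 7 dpi the mean of Slc7a8 is below that of Slc6a6.

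The order of the genes changed over the course. The summed level of the 57 genes was 354 ± 22.1 CPM per kilobase at 1 dpi (SD, n = 3, as for all means below) and 330 ± 4.61 at 2 dpi, and it was down to 245 ± 23.4 at 4 dpi and 165 ± 20.3 at 7 dpi. The libraries of 2, 4 and 7 dpi did not overlap in this sum, while those of 1 and 2 dpi were separated only by 337 against 334 in the nearest pair. Slc7a8 took 33.2 ± 2.06% of the sum at 1 dpi and 10.6 ± 2.49% at 7 dpi, while Slc6a6 took 19.5 ± 1.58% and 35.7 ± 3.83%. All 6 libraries of 1 and 2 dpi had more Slc7a8 than Slc6a6 per kilobase, while 2 of 3 libraries of 4 dpi and all 3 of 7 dpi had more Slc6a6.

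Counts were then compared between successive days with the quasi-likelihood test of edgeR, over 14310 genes, and p-values were adjusted over all of these (Benjamini-Hochberg). A gene was called differentially expressed (DEG) when its FDR was under 0.05 and its log2 fold change (log2FC) above 1 in size. Over the 3 steps, 11 of the 28 tested transporters were DEGs in at least 1 step, Slc7a8 and Slc7a1 in 2 steps, and 17 in none. Counting both directions, 9.06%, 11.9% and 12.6% of all genes tested were DEGs in the successive steps. From 1 to 2 dpi 4 transporters rose, where 5.09% of all genes tested did, and 0 fell, where 3.97% of all genes did. At an unadjusted p under 0.05 edgeR also gave 0 lower genes in that step, as did DESeq2 and limma-voom at the DEG thresholds. From 2 to 4 dpi 1 rose and 5 fell, against 8.02% and 3.88% of all genes. From 4 to 7 dpi 0 rose and 3 fell, against 7.44% and 5.2% of all genes. No transporter was higher at 7 than at 4 dpi at an unadjusted p under 0.05 in edgeR (0 genes), and DESeq2 and limma-voom called 0, whereas 9 were lower at that unadjusted p. The share of all genes at an unadjusted p was not computed. At an FDR under 0.05 with no fold threshold, edgeR gave 7 transporters lower at 7 than at 4 dpi. Of all 14310 genes, 2090 were lower and 1566 higher at that threshold.

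The median log2FC of the 28 genes was 0.12 from 1 to 2 dpi, where that of all genes was 0.01, and 0.00 from 2 to 4 dpi, where that of all genes was 0.04. From 4 to 7 dpi it was -0.46, beside -0.03 over all genes, and 24 of the 28 values lay below 0. Above 0 lay 4 of the 28, beside 6979 of all 14310 genes. The libraries of the days compared did not overlap for 10 transporters in the first step, 13 in the next and 6 in the last, where 39.4%, 44.2% and 40% of all genes tested did not. Over the 4 days together, 17 of the 28 differed by an F test at an FDR under 0.05, near the 61.5% of all genes. Mean log2 CPM was highest at 1 dpi for 10 transporters and at 4 dpi for another 10, while 4 peaked at 2 dpi and 4 at 7 dpi.

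**Figure D2:**
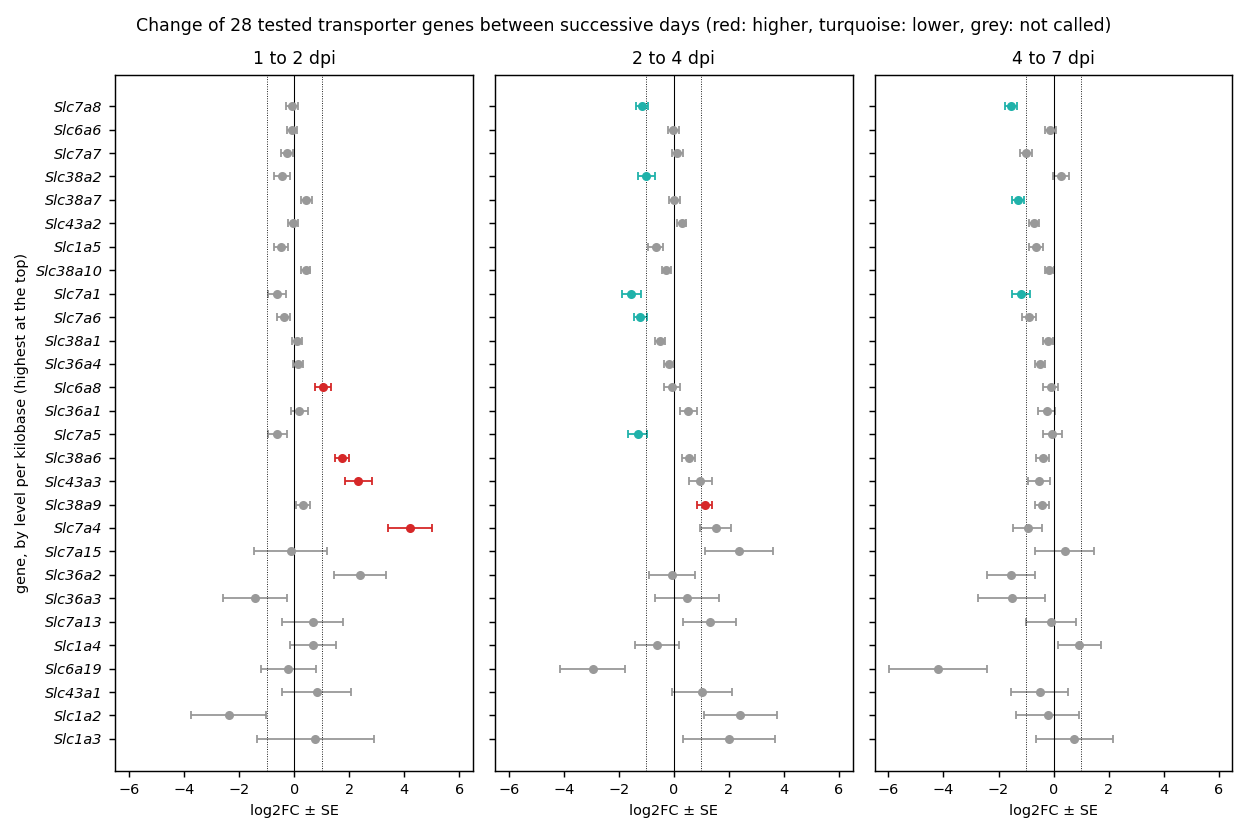
The log2FC of each of the 28 tested transporter genes (points) with its SE (bars) in the 3 steps between days, genes ordered by level, with DEGs in red (higher) or turquoise (lower) and dotted lines at the fold threshold. The DEGs from 1 to 2 dpi lie on the right, most of those from 2 to 4 dpi and all from 4 to 7 dpi on the left, and the genes at the bottom, with few counts, have the widest bars.

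The first and last day were also compared. The 1 to 7 dpi comparison uses the same libraries as the steps and is not separate evidence for them. From 1 to 7 dpi 4 transporters rose, where 19.7% of all genes did, and 8 fell, where 14% of all genes did, and both directions together took 33.7% of all genes. Libraries of the first and last day did not overlap for 19 transporters, where 55.9% of all genes did not. The median log2FC was -0.20, beside 0.16 over all genes. The 4 that rose were Slc38a6, Slc43a3, Slc38a9 and Slc7a4. The 8 that fell were Slc7a8, Slc7a1, Slc7a6, Slc7a5, Slc7a7, Slc1a5, Slc38a2 and Slc6a19, and of these Slc7a7, Slc1a5 and Slc6a19 were DEGs in no step.

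**Figure D3:**
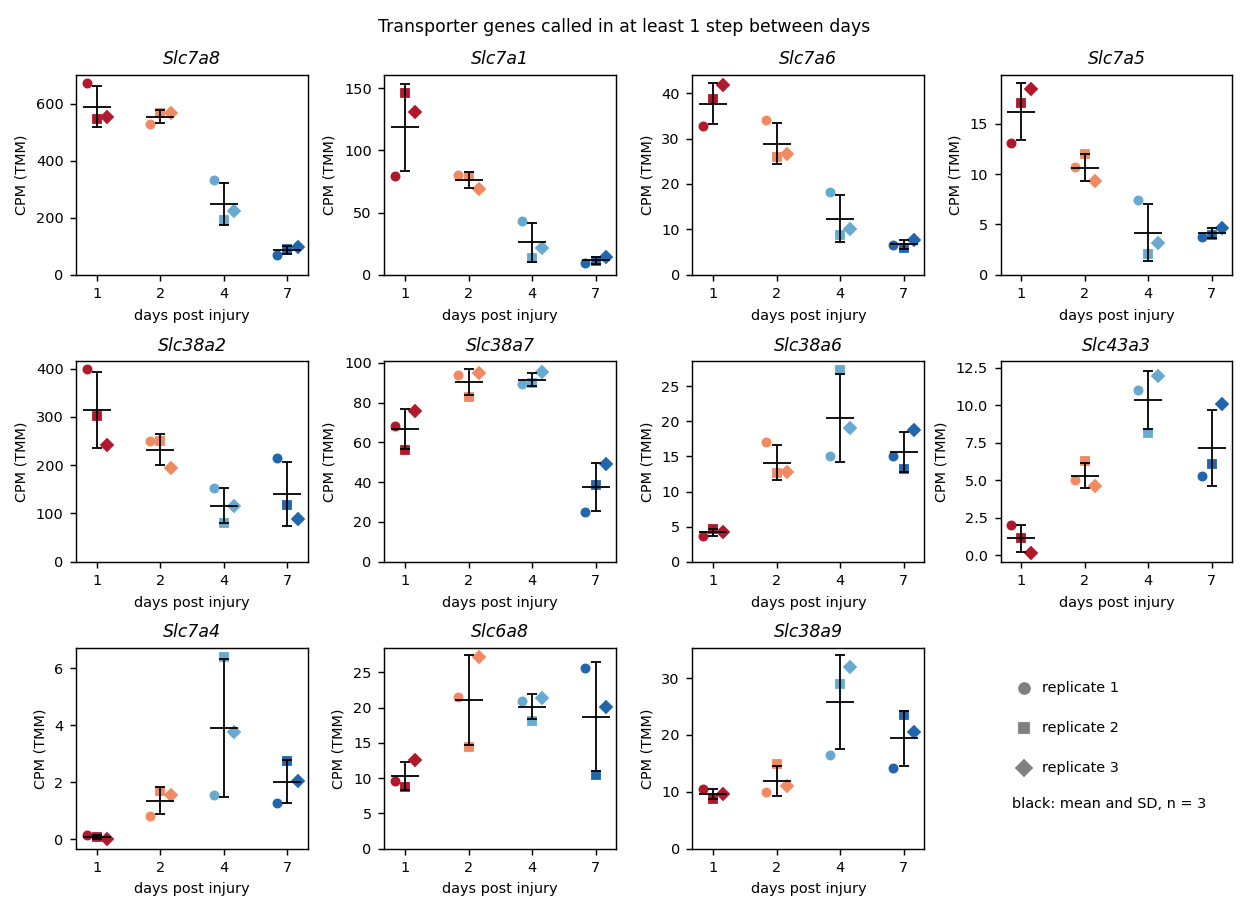
CPM of the 11 transporter genes that were DEGs in at least 1 step, by day, with 1 point per library (circle, replicate 1; square, replicate 2; diamond, replicate 3) and black marks for the mean and SD of 3 libraries. Slc7a8, Slc7a1, Slc7a6, Slc7a5 and Slc38a2 have their lower levels at 4 and 7 dpi, Slc38a6, Slc43a3 and Slc7a4 have their lowest at 1 dpi, and Slc38a7 falls after 4 dpi.

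The light chains of heteromeric exchangers gave the largest number of decreases, but they were also the group with the most tested genes. Of 9 members 6 were tested. The step to 4 dpi had 3 falls, where 3.88% of all genes fell. The step to 7 dpi had 1 fall, where 5.2% of all genes fell. Over the whole course 4 of the 6 fell, where 14% of all genes did. In the main edgeR fit, with the filter, all 12 libraries and no replicate block, none of the light chains was called higher in any comparison. At an unadjusted p under 0.05, Slc7a15 from 1 to 7 dpi was the only higher value among them. Slc7a8 (ENSMUSG00000022180) encodes LAT2, which exchanges neutral amino acids large and small. It stood at 672, 545 and 553 CPM in the 3 libraries of 1 dpi, 530, 566 and 568 at 2 dpi, 332, 190 and 225 at 4 dpi and 70.4, 90.5 and 97.6 at 7 dpi. The first 2 days overlapped, each later day lay wholly below the one before, and replicate 1 was the highest library of 4 dpi. Its log2FC was -0.09 ± 0.21 (SE) from 1 to 2 dpi, -1.16 ± 0.22 from 2 to 4 dpi (edgeR, adjusted p = 0.0015) and -1.53 ± 0.22 from 4 to 7 dpi (edgeR, adjusted p = 0.00051). From 1 to 7 dpi it fell 6.84-fold, the log2FC being -2.77 ± 0.23 (edgeR, adjusted p = 2.4e-07). Without replicate 2 of 4 dpi, the log2FC from 2 to 4 dpi was -0.996 (adjusted p = 0.0115), just under the fold threshold.

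Slc7a7 (ENSMUSG00000000958) encodes y+LAT1, which exports cationic amino acids such as arginine in exchange for neutral ones. Its levels were 116, 97.9 and 84.0 CPM at 1 dpi, 85.6, 88.6 and 76.8 at 2 dpi, 97.5, 89.2 and 87.5 at 4 dpi and 37.3, 35.6 and 65.1 at 7 dpi. The first 3 days overlapped, and all libraries of 7 dpi lay below those of every other day. The log2FC from 4 to 7 dpi was -0.99 ± 0.22 (edgeR, adjusted p = 0.0050), just short of the fold threshold. It was called in 6 of 20 alternatives, which were limma-voom (-1.04), no filter on low counts (-1.0001) and leaving out replicate 3 of 7 dpi (-1.32), replicate 3 of 4 dpi (-1.04), replicate 2 of 4 dpi (-1.02) or replicate 2 of 2 dpi (-1.01). The log2FC from 1 to 7 dpi was -1.11 ± 0.22 (edgeR, adjusted p = 0.00057). The 1 to 7 dpi value moved to -0.92 without replicate 1 of 1 dpi, to -0.96 without replicate 1 of 7 dpi and to -0.93 without replicate 2 of 7 dpi, all under the fold threshold. Its exons share 232 of 3315 bases with Oxa1l on the other strand, which counts without strand do not separate.

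Slc7a6 (ENSMUSG00000031904), the second y+LAT gene, stood at 32.8, 38.6 and 41.7 CPM at 1 dpi, 34.1, 25.9 and 26.7 at 2 dpi, 18.2, 8.70 and 10.2 at 4 dpi and 6.47, 5.90 and 7.71 at 7 dpi. The libraries of 2, 4 and 7 dpi were fully separated. The gene fell from 2 to 4 dpi with a log2FC of -1.22 ± 0.25 (edgeR, adjusted p = 0.0026) and from 1 to 7 dpi with -2.49 ± 0.26 (edgeR, adjusted p = 1.7e-06). From 4 to 7 dpi its log2FC was -0.89 ± 0.25 (edgeR, adjusted p = 0.017), under the fold threshold, and it passed that threshold without replicate 2 of 4 dpi (-1.11), replicate 3 of 4 dpi (-1.03) or replicate 3 of 7 dpi (-1.002).

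Slc7a5 (ENSMUSG00000040010) encodes LAT1, an exchanger of large neutral amino acids such as leucine that is well known from activated lymphocytes. It was much lower than Slc7a8, at 13.0, 17.1 and 18.4 CPM at 1 dpi, 10.7, 11.9 and 9.31 at 2 dpi, 7.38, 2.04 and 3.16 at 4 dpi and 3.75, 3.94 and 4.69 at 7 dpi. All libraries of 4 and 7 dpi lay below those of 2 dpi, and those of 4 and 7 dpi overlapped. The log2FC was -1.32 ± 0.34 from 2 to 4 dpi (edgeR, adjusted p = 0.012) and -1.97 ± 0.34 from 1 to 7 dpi (edgeR, adjusted p = 0.00020). The step from 2 to 4 dpi was no longer called without replicate 2 of 4 dpi (adjusted p = 0.0536) or without replicate 3 of 4 dpi (adjusted p = 0.0674). The other tested light chain genes, Slc7a13 and Slc7a15, had means of 0.251 and 0.534 CPM and were called in no comparison. For Slc7a15 the 1 to 7 dpi test missed the threshold with edgeR (adjusted p = 0.087) and passed it with DESeq2 (adjusted p = 0.0439), limma-voom (adjusted p = 0.0462), no filter on low counts (adjusted p = 0.0248) and without replicate 3 of 1 dpi (edgeR, adjusted p = 0.0101).

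Since light chains share a heavy chain, Slc3a2 is given beside them. It stood at 794, 643 and 562 CPM at 1 dpi, 619, 573 and 562 at 2 dpi, 414, 264 and 301 at 4 dpi and 303, 268 and 318 at 7 dpi. All libraries of 4 dpi lay below those of 2 dpi, and 4 and 7 dpi overlapped. Its log2FC was -0.84 ± 0.20 from 2 to 4 dpi (edgeR, adjusted p = 0.00864), under the fold threshold, and -1.17 ± 0.21 from 1 to 7 dpi (edgeR, adjusted p = 0.000224). Slc3a1, the heavy chain of kidney and gut, had at most 0.246 CPM in a library and was not tested.

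Summed over Slc7a5, Slc7a6, Slc7a7 and Slc7a8, the light chain level was 161 ± 16.97 CPM per kilobase at 1 dpi and 145 ± 3.31 at 2 dpi, then 81.2 ± 18.1 at 4 dpi and 33.7 ± 7.49 at 7 dpi, while Slc3a2 went from 189 ± 33.4 through 166 ± 8.51 and 92.4 ± 22.1 to 84.0 ± 7.25. At 4 and 7 dpi the makeup of the light chains had moved from Slc7a8 towards Slc7a7. Slc7a8 gave 73.4 ± 1.37% of the light chain sum at 1 dpi and 76.3 ± 1.87% at 2 dpi, then 60.7 ± 4.38% at 4 dpi and 51.7 ± 5.89% at 7 dpi. The share of Slc7a7 was 18.6 ± 1.50%, 17.4 ± 1.21%, 34.8 ± 5.53% and 40.6 ± 6.09% on the same days. Per kilobase there was 4.41 ± 0.427 times as much Slc7a8 as Slc7a7 at 2 dpi and 1.79 ± 0.426 times at 4 dpi, and the libraries of these days did not overlap in the ratio, the nearest being 4.10 and 2.25. At 7 dpi the ratio was 1.31 ± 0.348 and overlapped with 4 dpi. These shares are descriptions without a test.

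**Figure D4:**
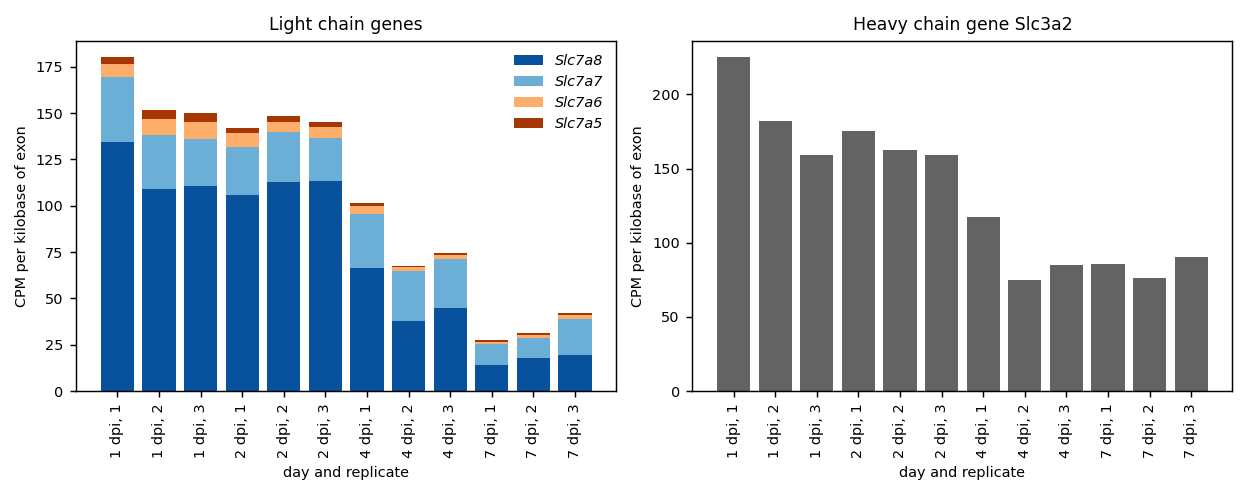
Left, stacked levels of Slc7a8, Slc7a7, Slc7a6 and Slc7a5 in each library, in CPM per kilobase of exon, and right, the level of Slc3a2, their heavy chain gene, in the same unit and libraries (day and replicate on the x axis). The light chain sum drops at 4 dpi and again at 7 dpi, mostly through Slc7a8, whereas Slc3a2 drops at 4 dpi and stays between 76.0 and 90.2 at 7 dpi.

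The cationic amino acid branch had 2 of 4 members tested, and 1 fell and 1 rose. The rise was in the step to 2 dpi, where 5.09% of all genes rose. The fall was in the steps to 4 and 7 dpi, where 3.88% and 5.2% of all genes fell. Slc7a1 (ENSMUSG00000041313) encodes CAT1, the widely expressed importer of arginine and lysine. Its levels were 79.0, 146 and 131 CPM at 1 dpi, 80.4, 79.1 and 68.7 at 2 dpi, 43.5, 13.2 and 21.4 at 4 dpi and 9.17, 11.2 and 14.3 at 7 dpi. Replicate 1 was the lowest library of 1 dpi and the highest of 4 dpi, all libraries of 4 dpi lay below those of 2 dpi, and 4 and 7 dpi overlapped by 1 library each. It fell 2.91-fold from 2 to 4 dpi, with a log2FC of -1.54 ± 0.33 (edgeR, adjusted p = 0.0040), and 10.3-fold from 1 to 7 dpi, with -3.36 ± 0.36 (edgeR, adjusted p = 2.2e-06), the steepest fall among transporters with a mean of 1 CPM or more. The step from 4 to 7 dpi gave -1.18 ± 0.33 (edgeR, adjusted p = 0.018). That step was lost without replicate 1 of 4 dpi (-0.60, adjusted p = 0.137), without replicate 1 of 7 dpi (adjusted p = 0.0707), without replicate 2 of 7 dpi (adjusted p = 0.0623) and in a fit of the 6 libraries alone (adjusted p = 0.0591).

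Slc7a4 (ENSMUSG00000022756), a member of the same branch whose substrate is not settled, had 2, 2 and 0 counts at 1 dpi, and 0.83, 1.69 and 1.58 CPM at 2 dpi, 1.57, 6.39 and 3.77 at 4 dpi and 1.27, 2.77 and 2.06 at 7 dpi. Every later library lay above those of 1 dpi, and 2, 4 and 7 dpi overlapped. The log2FC from 1 to 2 dpi was 4.20 ± 0.81 (edgeR, adjusted p = 0.0026, and limma-voom, adjusted p = 0.0724) and that from 1 to 7 dpi 4.77 ± 0.79 (edgeR, adjusted p = 0.00013), both resting on 4 counts at 1 dpi. From 2 to 4 dpi the log2FC was 1.51 ± 0.55 (edgeR, adjusted p = 0.064), and without replicate 1 of 4 dpi it was 1.90 (adjusted p = 0.0152). That step was called by DESeq2 (adjusted p = 0.0264), in a fit of the 6 libraries alone (adjusted p = 0.0430), without replicate 3 of 1 dpi (adjusted p = 0.0462) and with no filter on low counts (adjusted p = 0.0250). The exons of Slc7a4 share 554 of 4153 bases with P2rx6 on the other strand, which had 0 counts at 1 dpi, at most 8 at 2 dpi, at most 10 at 4 dpi and 16 to 28 at 7 dpi. The genes of Slc7 outside the rule moved too: Slc7a11, the cystine exchanger, fell from a mean of 81.7 to 8.71 CPM from 1 to 2 dpi (log2FC -3.23 ± 0.25, edgeR adjusted p = 2.24e-06), and Slc7a2, an inducible arginine carrier, from 10.9 to 5.10 CPM from 4 to 7 dpi (log2FC -1.08 ± 0.34, edgeR adjusted p = 0.0278).

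Both neutral exchangers of the Slc1 family were tested. Slc1a5 (ENSMUSG00000001918) encodes ASCT2, a main route for glutamine in proliferating cells. It stood at 74.2, 94.2 and 108 CPM at 1 dpi, 59.2, 68.0 and 70.3 at 2 dpi, 56.9, 36.8 and 30.8 at 4 dpi and 16.6, 30.0 and 33.8 at 7 dpi. Each day up to 4 dpi lay wholly below the one before, and 4 and 7 dpi overlapped. No step was called, with log2FC of -0.49 ± 0.26, -0.66 ± 0.26 and -0.63 ± 0.26, but from 1 to 7 dpi the gene fell 3.44-fold, with a log2FC of -1.78 ± 0.27 (edgeR, adjusted p = 5.4e-05). Slc1a4 (ASCT1) had a mean of 0.459 CPM and was called in no comparison. Among the 5 glutamate carriers 2 were tested, Slc1a2 and Slc1a3, both under 1 CPM on average and called in no comparison.

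In the Slc38 family, 4 of the 9 sodium-coupled carriers outside the lysosome were tested, with 1 rise and 1 fall over the steps. The rise was in the step to 2 dpi, where 5.09% of all genes rose. The fall was in the step to 4 dpi, where 3.88% of all genes fell. Slc38a2 (ENSMUSG00000022462) encodes SNAT2, a carrier of alanine, serine and glutamine that many cells induce when amino acids are scarce. Its levels were 399, 302 and 242 CPM at 1 dpi, 250, 251 and 195 at 2 dpi, 153, 80.5 and 115 at 4 dpi and 215, 118 and 88.5 at 7 dpi. The libraries of 4 dpi lay below those of 2 dpi, and at 7 dpi the spread ran from under the middle library of 4 dpi to within the range of 2 dpi. The fall from 2 to 4 dpi was at the fold threshold, with a log2FC of -1.0004 ± 0.30 (edgeR, adjusted p = 0.028), and was called in only 4 of 20 alternatives. It was -0.80 (adjusted p = 0.134) without replicate 2 of 4 dpi. From 1 to 7 dpi the log2FC was -1.16 ± 0.30 (edgeR, adjusted p = 0.0046), and it moved to -0.89 without replicate 1 of 1 dpi or without replicate 3 of 7 dpi.

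Slc38a6 (ENSMUSG00000044712), which encodes SNAT6, a less studied member, rose early and stayed high. It stood at 3.69, 4.68 and 4.20 CPM at 1 dpi, 17.007, 12.6 and 12.8 at 2 dpi, 15.1, 27.4 and 19.1 at 4 dpi and 15.1, 13.2 and 18.7 at 7 dpi. Every later library was above every library of 1 dpi, and the later days overlapped. The log2FC was 1.75 ± 0.25 from 1 to 2 dpi (edgeR, adjusted p = 0.00027) and 1.89 ± 0.25 from 1 to 7 dpi (edgeR, adjusted p = 1.7e-05), and both were called in all 20 alternatives. Slc38a10 (SNAT10), at 57.9, 71.1 and 59.5 CPM at 1 dpi, 86.0, 76.5 and 89.1 at 2 dpi, 74.8, 63.0 and 70.8 at 4 dpi and 69.9, 51.9 and 65.0 at 7 dpi, was called in no comparison, and its F test over the days gave an adjusted p of 0.10 (edgeR). Slc38a1 (SNAT1), a glutamine carrier, was also a DEG in no comparison, with a mean of 85.2 ± 8.92 CPM at 1 dpi and 56.7 ± 4.25 CPM at 7 dpi and a log2FC of -0.59 ± 0.18 between them (edgeR, adjusted p = 0.011).

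The 3 lysosomal carriers differed from each other. Slc38a7 (ENSMUSG00000036534) encodes SNAT7, which brings glutamine and asparagine out of the lysosome. It stood at 68.3, 56.0 and 75.9 CPM at 1 dpi, 93.9, 82.7 and 94.8 at 2 dpi, 89.5, 90.0 and 95.3 at 4 dpi and 24.8, 38.5 and 48.9 at 7 dpi. The libraries of 2 and 4 dpi overlapped and all of them lay above those of the other days, and those of 7 dpi were the lowest. The fall from 4 to 7 dpi was 2.45-fold, with a log2FC of -1.29 ± 0.21 (edgeR, adjusted p = 0.0011), called in all 20 alternatives. From 1 to 7 dpi the log2FC was -0.83 ± 0.21 (edgeR, adjusted p = 0.0041), under the fold threshold, and -1.06 without replicate 3 of 7 dpi.

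Slc38a9 (ENSMUSG00000047789) encodes SNAT9, a lysosomal carrier that also reports arginine to mTORC1. Its levels were 10.5, 8.70 and 9.59 CPM at 1 dpi, 9.91, 14.8 and 10.96 at 2 dpi, 16.4, 29.0 and 31.9 at 4 dpi and 14.1, 23.5 and 20.6 at 7 dpi. All libraries of 4 dpi lay above those of 2 dpi, with replicate 1 the lowest of them, and 4 and 7 dpi overlapped. By edgeR in all libraries with the filter on low counts, it was the only transporter that rose from 2 to 4 dpi. Its log2FC was 1.12 ± 0.26 (edgeR, adjusted p = 0.0066), and 0.93 (adjusted p = 0.0435) without replicate 3 of 4 dpi. From 1 to 7 dpi the log2FC was 1.02 ± 0.26 (edgeR, adjusted p = 0.0042), called in 15 of 20 alternatives. It lay under the fold threshold with limma-voom (0.9993) and without replicate 2 of 2 dpi (0.9998), replicate 2 of 7 dpi (0.88) or replicate 3 of 7 dpi (0.99). Its exons share 182 of 16704 bases with an antisense gene, Gm47827. Slc36a1 (PAT1), which moves small amino acids with protons out of the lysosome, ranged from 7.86 CPM to 21.8 CPM over the 12 libraries and was called in no comparison, with step log2FC of 0.18 ± 0.31, 0.52 ± 0.31 and -0.25 ± 0.31.

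Promoters were read for what these genes share in sequence, in RefSeq windows from 250 bases before to 50 after the start (GRCm38.p6), which were given for 40 of the 57 genes. Some genes had more than 1 window, and a gene was counted when any of its windows held the motif. CACGTG, the palindromic E-box core of the CLEAR element found in many lysosomal genes, was in 9 of the 40, or 22.5%. Among all 27025 genes with a promoter the share was 8.09%. Among the lysosomal carriers it was in those of Slc38a7 and Slc36a1 and not in that of Slc38a9. The last 100 bases before the start are shown for these 3, for Slc38a7 at chr8:95853492-95853591 (minus strand), Slc36a1 at chr11:55204240-55204339 (plus strand) and Slc38a9 at chr13:112660666-112660765 (plus strand), 5′ to 3′ along the gene with the motif in capitals.
Slc38a7: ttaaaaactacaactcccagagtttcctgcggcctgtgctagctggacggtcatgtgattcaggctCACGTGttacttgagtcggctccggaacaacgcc
Slc36a1: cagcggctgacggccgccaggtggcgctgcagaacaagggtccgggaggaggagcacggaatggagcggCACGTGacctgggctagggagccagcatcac
Slc38a9: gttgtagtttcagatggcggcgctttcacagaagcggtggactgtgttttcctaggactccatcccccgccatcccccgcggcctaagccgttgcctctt
The promoter of Slc36a1 holds another CACGTG that spans its start. Apart from these, the motif was in the promoters of Slc43a1 and of 6 genes that were not tested, so 3 of the 19 tested genes with a promoter held it. It was in 0 of the 6 with a promoter among genes that fell from 1 to 7 dpi and in 0 of the 2 among those that rose.

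TGATGNAA, the core of the amino acid response element that ATF4 and C/EBP proteins bind, was searched on both strands in the same windows. It was in 3 of the 40 genes with a promoter, or 7.5%, beside 4.51% of all such genes. The 3 were Slc1a4, Slc6a21 and Slc7a7. Of these Slc7a7 is the only gene with a mean above 1 CPM. Its window is shown from 150 to 51 bases before the start, chr14:54417995-54418094 (minus strand), with the match in capitals.
Slc7a7: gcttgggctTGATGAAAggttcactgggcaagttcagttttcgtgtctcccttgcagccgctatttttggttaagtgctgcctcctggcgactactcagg
A further match in this window spans the start, beginning 1 base before it, and is not shown. Of 5 windows of Slc7a7 3 had no match. A match is a description of letters and not a site in use, and windows without a match say nothing about the factors.

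Of the Slc43 family all 3 members were tested. Slc43a2 (ENSMUSG00000038178) encodes LAT4, a facilitator of large neutral amino acids. It stood at 171, 130 and 167 CPM at 1 dpi, 156, 151 and 146 at 2 dpi, 191, 182 and 176 at 4 dpi and 128, 92.9 and 116 at 7 dpi. The libraries of 4 dpi were the highest and those of 7 dpi the lowest, without overlap. No comparison was called, the log2FC from 4 to 7 dpi being -0.70 ± 0.18 (edgeR, adjusted p = 0.0099), and 922 of 10042 exonic bases are shared with an antisense gene, Gm45606. Slc43a3 (ENSMUSG00000027074), the purine nucleobase carrier, stood at 2.04, 1.15 and 0.18 CPM at 1 dpi, 5.03, 6.27 and 4.66 at 2 dpi, 11.0045, 8.16 and 11.9 at 4 dpi and 5.28, 6.12 and 10.1 at 7 dpi. Each day up to 4 dpi lay wholly above the one before, and 7 dpi overlapped with 2 and 4 dpi. It rose 5.01-fold from 1 to 2 dpi, with a log2FC of 2.32 ± 0.48 (edgeR, adjusted p = 0.0044), and 6.76-fold from 1 to 7 dpi, with 2.76 ± 0.48 (edgeR, adjusted p = 0.00021), both called in all 20 alternatives. Slc43a1 (LAT3) had a mean of 0.236 CPM and was called in no comparison.

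Of the 19 genes of Slc6 that met the rule, 3 were tested. Slc6a6 (ENSMUSG00000030096) encodes TauT, the carrier of taurine, which muscle and leukocytes accumulate. Its levels were 610, 624 and 519 CPM at 1 dpi, 590, 489 and 569 at 2 dpi, 525, 566 and 539 at 4 dpi and 604, 392 and 507 at 7 dpi. All 4 days overlapped. Its log2FC was -0.09 ± 0.19, -0.02 ± 0.19 and -0.12 ± 0.19 in the 3 steps and -0.22 ± 0.19 from 1 to 7 dpi, and the F test over the days gave an adjusted p of 0.75 (edgeR). Among the 10 highest transporters, Slc6a6 and Slc38a10 were the 2 without a difference between days at an FDR under 0.05.

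Slc6a8 (ENSMUSG00000019558) encodes the creatine transporter. It stood at 9.58, 8.78 and 12.5 CPM at 1 dpi, 21.5, 14.4 and 27.2 at 2 dpi, 21.0, 18.1 and 21.4 at 4 dpi and 25.6, 10.4 and 20.2 at 7 dpi. All libraries of 2 dpi lay above those of 1 dpi, and the later days overlapped with 2 dpi. The rise from 1 to 2 dpi was at the threshold, with a log2FC of 1.03 ± 0.29 (edgeR, adjusted p = 0.028), and it was called in 12 of 20 alternatives. It was lost without replicate 1 (adjusted p = 0.0888) or 2 (adjusted p = 0.102) of 1 dpi and without replicate 1 (adjusted p = 0.0776) or 3 (adjusted p = 0.147) of 2 dpi. With all libraries the rise was also lost by limma-voom (adjusted p = 0.0566). It lay just under the fold threshold with DESeq2 (0.9967) and with RLE scaling factors (0.9968). From 1 to 7 dpi the log2FC was 0.86 ± 0.29 (edgeR, adjusted p = 0.022), and 1.18 without replicate 2 of 7 dpi.

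Slc6a19 (ENSMUSG00000021565) encodes B0AT1, the neutral amino acid carrier of gut and kidney, and was the only gene under 1 CPM with a call. It had 16, 14 and 12 counts at 1 dpi, 18, 8 and 26 at 2 dpi, 0, 0 and 6 at 4 dpi and 0, 0 and 0 at 7 dpi. All 6 libraries of 1 and 2 dpi had counts, and 1 of the 6 later libraries did. Taking 3 counts over the 7 dpi group as the upper limit of a count of 0, the level was at least 25.0-fold lower at 7 than at 1 dpi (edgeR, adjusted p = 0.0019). All its counts were even. If mates were counted separately, 3 fragments would be 6 counts and the bound 12.5-fold. These limits cover counting error only. From 2 to 4 dpi the adjusted p was 0.091 with edgeR, 0.0198 with edgeR without replicate 3 of 4 dpi, which held the 6 counts, 0.0469 with DESeq2 and 0.0169 with limma-voom.

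The remaining members of Slc36 moved little or were low. Slc36a4 (PAT4), a carrier of proline and tryptophan, had a mean of 27.4 ± 1.01 CPM at 4 dpi and 19.3 ± 3.89 CPM at 7 dpi, with all libraries of 7 dpi the lower and a log2FC of -0.51 ± 0.18 (edgeR, adjusted p = 0.047). Slc36a2 and Slc36a3 had means of 0.566 and 0.282 CPM and were called in no comparison.

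In the transporters called between 2 and 4 dpi, replicate 1 of 4 dpi lay nearer to 2 dpi than the other libraries of its day. For all 5 transporters that fell from 2 to 4 dpi it was the highest library of 4 dpi, and for Slc38a9, which rose, the lowest. The share of all genes that place it so was not computed. Over all genes tested, 555 were called lower and 1148 higher in this step. Without replicate 1 of 4 dpi these were 972 and 1353. They were 327 and 795 without replicate 2 and 389 and 867 without replicate 3. The shift was thus not limited to transporters. The macrophage marker sum of replicate 1, 6822 CPM, was the lowest of 4 dpi, where the other libraries had 11575 and 8660 CPM. It also lay below the sums of 2 dpi, which were 7972 to 8610 CPM. The share of mitochondrial counts, taken without the gene that has no symbol, was 6.26% in this library and 12.5% and 11.4% in the others of 4 dpi, beside 4.77 to 5.36% at 2 dpi, and its part in these results was not tested. Without replicate 1 of 4 dpi, Slc7a8, Slc7a1, Slc7a6, Slc7a5 and Slc38a2 were called lower at 4 than at 2 dpi. Leaving out the highest library lowers the mean of its day, so these calls are no check on the falls. Without replicate 2 of 4 dpi, Slc7a8 (log2FC -0.996), Slc7a5 (edgeR, adjusted p = 0.0536) and Slc38a2 (log2FC -0.80) were no longer called. Slc7a1 and Slc7a6 were called in all 20 alternatives.

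The genes around the transporters were read from lists of known function. Over all genes tested, 5.09% rose and 3.97% fell in the first step, 8.02% and 3.88% in the next, 7.44% and 5.2% in the last, and 19.7% and 14% over the whole course. Among 15 tested of 19 genes, ATF4, the transcription factor of the amino acid response, and its known targets outside the transporter families had 1 rise in the first step, 1 fall in the next, and 1 rise with 3 falls in the last. Over the whole course 1 rose and 6 fell, and 1 of these 6 is Slc3a2, already given above. Atf4 itself had a mean of 85.5 CPM at 1 dpi and 20.8 CPM at 7 dpi, with a log2FC of -2.04 ± 0.21 (edgeR, adjusted p = 1.77e-06), and was called in no step. Psat1, an enzyme of serine synthesis, fell from 36.6 to 6.05 CPM from 4 to 7 dpi, with a log2FC of -2.59 ± 0.38 (edgeR, adjusted p = 0.000614). Psph, the last enzyme of that route, rose from 1 to 2 dpi (log2FC 1.59 ± 0.27, edgeR adjusted p = 0.000957) and fell from 4 to 7 dpi (-1.06 ± 0.25, edgeR adjusted p = 0.0071). Mthfd2, of mitochondrial folate metabolism, fell from 2 to 4 dpi (log2FC -1.41 ± 0.34, edgeR adjusted p = 0.00816). Ddit3, which encodes CHOP, rose from 4 to 7 dpi (log2FC 1.31 ± 0.37, edgeR adjusted p = 0.0176), and Shmt2, a serine hydroxymethyltransferase, fell at the threshold with overlapping libraries (-1.0006 ± 0.33, edgeR adjusted p = 0.036). For these genes the median log2FC between the first and last day was -0.79, beside 0.16 over all genes.

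Of the genes that sense amino acids at the lysosome and build mTORC1, 37 of 38 were tested. The first step had 2 rises, the next 5 rises and the last 2 falls, while over the whole course 6 rose and 3 fell, where 19.7% and 14% of all genes did. Sesn1, a sestrin of the family that restrains mTORC1 when leucine is low, rose from 18.1 to 41.8 CPM from 1 to 2 dpi (log2FC 1.21 ± 0.19, edgeR adjusted p = 0.000558) and to 88.4 CPM at 4 dpi (1.08 ± 0.19, edgeR adjusted p = 0.000807). Sesn3 rose in the same steps (1.57 ± 0.38 and 1.04 ± 0.35, edgeR adjusted p = 0.0126 and 0.0444). Rragd, a Rag GTPase, rose from 0.279 to 2.61 CPM from 2 to 4 dpi (log2FC 3.23 ± 0.61, edgeR adjusted p = 0.00159), and Deptor, an inhibitor of mTOR, from 7.67 to 17.3 CPM (1.17 ± 0.24, edgeR adjusted p = 0.00288). Sec13, of the GATOR2 complex and of vesicle coats, fell from 4 to 7 dpi (-1.003 ± 0.185, edgeR adjusted p = 0.00188), as did Tbc1d7 of the TSC complex (-1.18 ± 0.42, edgeR adjusted p = 0.0481). Tfeb, Tfe3 and Mitf, the transcription factors of lysosomal genes, were DEGs in no step. The list's median log2FC was 0.08, 0.15 and -0.25 in the 3 steps and -0.07 from 1 to 7 dpi.

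All 12 mitochondrial amino acid carriers were tested. The first step had 1 rise and 1 fall, the next 1 fall and the last 3 falls, while over the whole course 1 rose and 5 fell. Slc25a15, the ornithine carrier, rose from 1 to 2 dpi (log2FC 1.31 ± 0.29, edgeR adjusted p = 0.00673), where Slc25a18, a glutamate carrier with under 1 CPM, fell (-3.36 ± 1.06, edgeR adjusted p = 0.0476). Sfxn5, a sideroflexin, fell from 2 to 4 dpi (-1.49 ± 0.29, edgeR adjusted p = 0.00214). From 4 to 7 dpi the aspartate and glutamate carriers Slc25a12 (-1.12 ± 0.17, edgeR adjusted p = 0.000614) and Slc25a13 (-1.12 ± 0.28, edgeR adjusted p = 0.00942) and the serine carrier Sfxn1 (-1.20 ± 0.30, edgeR adjusted p = 0.0101) fell. Sfxn3, a further serine carrier, fell from 110 to 37.4 CPM from 1 to 7 dpi (log2FC -1.55 ± 0.24, edgeR adjusted p = 6.04e-05). Over the whole course the 12 genes had a median log2FC of -0.59.

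Of 12 glutamine and glutamate enzymes 11 were tested, with 1 rise in the first step, 1 fall in the next and 3 falls in the last. Over the whole course 2 fell. Gpt, an alanine aminotransferase, rose from 0.916 to 2.48 CPM from 1 to 2 dpi (log2FC 1.43 ± 0.36, edgeR adjusted p = 0.015) and fell from 4 to 7 dpi (-1.39 ± 0.34, edgeR adjusted p = 0.00903). Gclc, of glutathione synthesis, fell from 2 to 4 dpi (-1.08 ± 0.28, edgeR adjusted p = 0.0125). Got2, the mitochondrial aspartate aminotransferase, fell from 72.3 to 30.3 CPM from 4 to 7 dpi (-1.25 ± 0.26, edgeR adjusted p = 0.0034), and Aldh18a1, of proline synthesis, fell with overlapping libraries (-1.26 ± 0.32, edgeR adjusted p = 0.0107). The median log2FC of these 11 genes was 0.13, 0.12 and -0.35 in the 3 steps and 0.03 from 1 to 7 dpi.

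Among lysosomal carriers outside the 6 families, 8 of 9 were tested, with 1 fall in the first step, 1 rise in the next and 2 falls over the whole course. Slc15a3, a carrier of histidine and peptides, fell from 314 to 137 CPM from 1 to 2 dpi (log2FC -1.20 ± 0.17, edgeR adjusted p = 0.000239), and Slc29a3, a lysosomal nucleoside carrier, rose from 82.1 to 169 CPM from 2 to 4 dpi (1.05 ± 0.19, edgeR adjusted p = 0.00145). Mfsd1 fell from 249 to 112 CPM from 1 to 7 dpi (-1.15 ± 0.19, edgeR adjusted p = 0.000122). Of 8 further plasma membrane carriers and partner proteins 3 were tested, and 2 of them fell from 1 to 7 dpi, Slc3a2 as above and Slc16a10, a carrier of aromatic amino acids, from 165 to 74.9 CPM (-1.14 ± 0.20, edgeR adjusted p = 0.000198).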

How the data were processed

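Per the labels, the authors' pipeline ran Trim Galore 0.6.6, HISAT2 2.2.1 on GRCm39 and Subread 2.0.1, and the deposited values are raw counts per gene. The kit does not mark the strand. Of counts from 1 to 20, 76.6 to 85.5% per library were even; whether mates were counted separately, which would make small counts overstate fragments, is not given in the sources used here. Symbols and exonic lengths came from GENCODE M21 (GRCm38), joined by Ensembl ID, and 3333 IDs had no symbol.

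Analysis used R 4.3.3 with edgeR 4.0.16 (filterByExpr, TMM, 1 coefficient per day, all 12 libraries, quasi-likelihood test). SE is the absolute log2FC divided by the square root of F. CPM has no prior count, and log2 CPM a prior count of 2. Alternatives included DESeq2 1.42.0 and limma-voom (limma 3.58.1). The procedure was tested on simulated data. Same-day libraries differed by more than sampling noise, so none was treated as a repeat deposit of another. This does not show that they came from separate mice. Values per library are given for genes called in a step and for the 10 highest per kilobase. In other lists up to 4 called genes of smallest p per comparison were eligible to be named. Transporters and lists were chosen with earlier results of these data known. A member gene with too few counts to test is not reported here by name.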

Additional observations from a re-analysis of the deposited data

How the results depend on the processing

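Of the 13 calls in the 3 steps 6 held in every alternative tried, and of the 12 calls from 1 to 7 dpi 9 did. The alternatives were no filter, a CPM filter, RLE factors, library sizes without the unnamed gene, DESeq2, limma-voom, a fit restricted to the days compared, a replicate block, and leaving out each library in turn. No log2FC changed sign among the called values. With the replicate number as a block, 18 genes differed between any days (17 without it), 3 rose from 1 to 2 dpi (4 without it), and the other counts of called transporters were as given, though from 1 to 7 dpi not for the same genes. The block lost Slc6a8 from 1 to 2 dpi (0.9945) and Slc38a9 from 1 to 7 dpi (0.97), both under the fold threshold, and gained Slc7a15 from 1 to 7 dpi (3.64, edgeR adjusted p = 0.0299). The labels do not say that the number marks a shared mouse or batch, and deviations of same-numbered libraries correlated from -0.133 to 0.127, with 8 of 12 libraries closest to their own number.

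Genes higher at 4 than at 2 dpi numbered 1, and 2 with no filter, 2 with DESeq2 and 2 with the 6 libraries alone. Leaving out 1 library gave 0 to 2. Genes higher at 2 than at 1 dpi numbered 4, and 2 with limma-voom. Genes lower at 4 than at 2 dpi numbered 5, and 2 to 5 with 1 library left out. Genes lower at 7 than at 4 dpi numbered 3, and 2 to 5 with 1 library left out and 7 with no threshold on the fold change. Genes higher at 7 than at 1 dpi numbered 4, and 3 to 7 with 1 library left out. Over all genes, the share of higher among called genes from 4 to 7 dpi was 58.9%. It was 70.3% with DESeq2, 50.1 to 63.9% with 1 library left out (50.1% without replicate 2 of 4 dpi, 50.9% without replicate 3 of 7 dpi) and 42.8% with no threshold on the fold change. The cause of these shifts was not tested. With 3 libraries per day and 28 tested genes, small changes and genes with few counts could not be resolved.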
